A study of Mus musculus with 39 samples.

Results

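The genes described here were members of the STAT and interferon regulatory factor (IRF) group of transcription factors. They were Stat2, Irf1, Irf2, Irf4, Irf5, Irf7, Irf8, Irf9 and Batf2. Rows were taken by symbol, and the list was made with earlier results of these data known. Counts of members that passed are therefore descriptive. Of these 9 genes, 8 were found among the 39676 genes of the deposited count table, and Stat2 was not analysed here. RNA-seq had been performed on 39 subcutaneous AB1-HA tumours. AB1-HA is a murine mesothelioma cell line that carries the haemagglutinin of influenza virus, and it was grown in female and male BALB/c mice 8 to 10 weeks old. Tumours came from 10 mice given PBS, 9 mice given tretinoin, 10 mice given immune checkpoint therapy (ICT) and 10 mice given tretinoin and ICT together (tretinoin+ICT). Per the labels, tretinoin was given at 5 mg/kg in 5 daily doses that began on day 4, although the study's text gives a different dose or number of doses in places. ICT was 100 µg of anti-CTLA-4 with 100 µg of anti-PD-L1 and began on day 7. The study's methods give anti-CTLA-4 as a single dose and anti-PD-L1 as repeated doses. The study's methods name PBS as the control of ICT and PBS with DMSO as that of tretinoin, and the labels do not separate them. Each mouse carried a tumour on either flank, and 1 of them was resected on day 9 for sequencing. The tumour left in place showed the outcome, so response to tretinoin+ICT (6 responders and 4 non-responders) was a property of the mouse and not of the sequenced tumour. All groups shared the same transplanted cell line, so the model was 1 line in 1 inbred strain, and whole tumours were sequenced, with the host's leukocytes, fibroblasts and vessels in them.

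IRFs are transcription factors that bind interferon-stimulated response elements. After type I interferon binds its receptor, the kinases Jak1 and Tyk2 phosphorylate Stat2, which joins Irf9 in the complex ISGF3. Interferon gamma instead acts through gamma-activated sites (GAS), and Irf1 is a classical gene switched on that way. In tumours these factors are known for antigen presentation and for the development of myeloid and dendritic cells. Tretinoin is all-trans retinoic acid, the ligand of the retinoic acid receptors.

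The promoters of Irf1, Irf2 and Irf8 are shown because, among the members, they held letters of the elements through which interferons act. Each line gives 300 bases of RefSeq sequence on GRCm38.p6, written 5′ to 3′, with 250 bases before the start of the gene and 50 from it, and capitals mark the matches. The Irf1 promoter lies at chr11:53769764-53770063, that of Irf2 at chr8:46739495-46739794 and that of Irf8 at chr8:120736108-120736407, all on the plus strand.
Irf1: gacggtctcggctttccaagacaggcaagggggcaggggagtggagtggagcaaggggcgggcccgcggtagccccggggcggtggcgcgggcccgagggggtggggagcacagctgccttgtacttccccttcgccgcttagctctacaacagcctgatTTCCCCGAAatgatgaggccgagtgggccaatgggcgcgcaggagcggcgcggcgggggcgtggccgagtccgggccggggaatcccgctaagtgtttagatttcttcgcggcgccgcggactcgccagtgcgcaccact
Irf2: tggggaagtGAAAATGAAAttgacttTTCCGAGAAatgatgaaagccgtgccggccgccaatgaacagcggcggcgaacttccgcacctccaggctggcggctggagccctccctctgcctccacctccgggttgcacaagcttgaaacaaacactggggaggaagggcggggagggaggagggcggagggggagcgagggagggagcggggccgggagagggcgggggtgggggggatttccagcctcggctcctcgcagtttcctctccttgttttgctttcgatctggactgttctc
Irf8: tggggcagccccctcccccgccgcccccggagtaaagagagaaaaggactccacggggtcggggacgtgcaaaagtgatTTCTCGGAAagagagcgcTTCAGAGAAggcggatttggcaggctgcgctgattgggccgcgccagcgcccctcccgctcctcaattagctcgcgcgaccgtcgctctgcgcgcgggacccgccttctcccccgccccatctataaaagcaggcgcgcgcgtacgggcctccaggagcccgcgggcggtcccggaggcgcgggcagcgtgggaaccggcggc
The letters searched were GAAANNGAAA (TTTCNNTTTC on the other strand) for the core of the interferon-stimulated response element and TTCNNNGAA, which reads the same on both strands, for GAS. Irf1 held 1 GAS match at positions -90 to -82 from the start. Irf2 held a response element core at -241 to -232 and a GAS match at -224 to -216, with no overlap between them. Irf8 held 2 GAS matches, at -171 to -163 and at -153 to -145. Of all 32851 promoters of this length, 3.44% held the response element core and 8.3% held GAS. A retinoic acid response element of the DR5 type was found in 0.0974% of all promoters and in none of the 10 promoters of 7 members that the RefSeq table held. Batf2 had no entry. The promoters of Irf4, Irf5, Irf7 and Irf9 and the second entries of Irf1, Irf8 and Irf9 held none of these letters. A match is a description of the letters and not a site of binding, and no binding was measured.

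On GRCm38 (GENCODE M21), the genes lie at chr11:53770014-53778374 (Irf1, plus strand), chr8:46739732-46847458 (Irf2, plus), chr13:30749226-30766976 (Irf4, plus), chr6:29526625-29541871 (Irf5, plus), chr7:141262706-141266481 (Irf7, minus), chr8:120736358-120756694 (Irf8, plus), chr14:55603571-55610030 (Irf9, plus) and chr19:6140983-6172476 (Batf2, plus). Reads were counted over the exons of each gene. Irf5 shared 411 exon bases (14.15% of its own) with Tnpo3 on the opposite strand, and the other overlaps, of Irf1, Irf7, Irf9 and Batf2 with a neighbour each, took up 1.19% to 3.4%. Whether the counting used strand is not given in the sources used here, so reads in these stretches cannot be assigned to 1 gene of the pair.

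Library totals ranged from 14033046 to 37951183 counts, with a median of 18548168. The 741 pairs of tumours correlated at r of 0.931 to 0.988 on the log2 scale, and 0 pairs held identical counts. Nothing in the labels pairs tumours across groups. Of 7 mesothelial marker genes, 4 were in the table (Wt1, Upk3b, Krt19 and Gpm6a). They summed to 0.38 to 6.38 CPM (counts scaled to a common library size) in any tumour, so the labelled tumour type was not visible in these 4 markers. Col1a1 and Pdgfra, listed as fibroblast markers, summed to 1792 to 3448 CPM in PBS tumours. The study describes AB1-HA tumours as sarcomatoid, and which cells these 2 transcripts came from was not tested. The leukocyte marker Ptprc (CD45) had a mean of 249.9 CPM in PBS tumours, 274.8 with tretinoin, 371 with ICT and 411 with tretinoin+ICT. PBS tumour 14, tretinoin tumour 33 and ICT tumours 63 and 82 were known from earlier work on these data to have high leukocyte markers, and results were also computed without them. The first digit of a tumour's name forms a series (PBS 1 and 5, tretinoin 3 and 7, ICT 6 and 8, tretinoin+ICT 2 and 4) that lies wholly within a treatment. No series spans treatments, so a part of a treatment difference that came from the series cannot be told apart from treatment, while the 2 series of a treatment can be compared with each other.

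All 8 members were transcribed in every group, at levels that spanned more than an order of magnitude. Levels between genes are compared as CPM per kb of exon, with CPM scaled by TMM (edgeR's normalisation for library composition). In PBS tumours, Irf1 stood highest at 60.9 ± 23.4 CPM per kb (SD, n = 10), followed by Irf7 at 49.2 ± 6.08. Irf5 (19.5 ± 3.86), Irf9 (15.5 ± 1.96) and Irf8 (10.6 ± 3.24) formed the middle of the order. Irf2 (7.39 ± 1.27) and Batf2 (7.03 ± 3.97) came next, and Irf4 was lowest at 1.43 ± 0.337 CPM per kb. The neighbours Irf1 and Irf7, Irf8 and Irf2, and Irf2 and Batf2 differed by less than the larger SD of the pair. In tretinoin+ICT tumours the order changed below Irf5. Irf1 was at 220 ± 65.7 CPM per kb (SD, n = 10), Irf7 at 72.6 ± 13.6 and Irf5 at 61.6 ± 17.4. Irf8 (37.8 ± 12.1) and Batf2 (36.2 ± 12.4) both stood above Irf9 (23.1 ± 1.82), with Irf2 at 16.6 ± 4.79 and Irf4 at 4.21 ± 1.44. Irf7 and Irf5, and Irf8 and Batf2, were the neighbours that differed by less than the larger SD there.

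**Figure D1:**
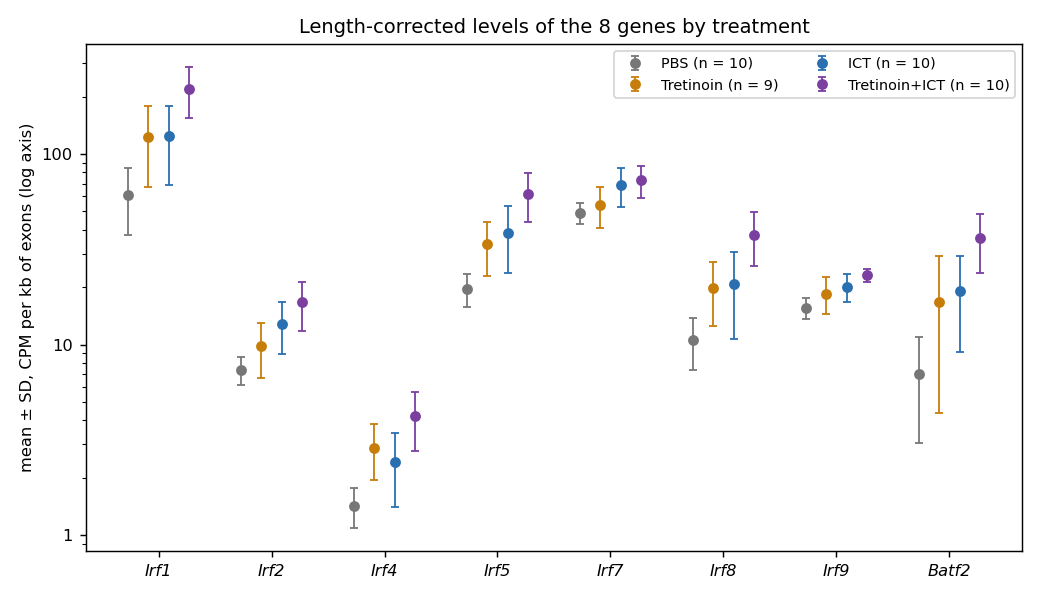
Level of each member in CPM per kb of exon by treatment group, with the mean and SD over tumours. Irf1 was highest and Irf4 lowest in both PBS (60.9 and 1.43) and tretinoin+ICT tumours (220 and 4.21).

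Irf9, the DNA-binding subunit of ISGF3, moved within a narrow range. In PBS tumours it was at 67.6 CPM in the lowest, 82.2 at the median and 103 in the highest tumour. With tretinoin these values were 76.7, 87.3 and 129.6, with ICT 69.6, 114 and 126, and with tretinoin+ICT 108, 124 and 138. All 10 tretinoin+ICT tumours lay above every PBS tumour, whereas 3 of 9 tretinoin tumours (32, 33 and 71) and 7 of 10 ICT tumours did. Here and for the members below, how many of all genes separated in this way was not counted. A lack of overlap therefore cannot be read as particular to the members. ICT tumour 85, at 69.6 CPM, was within the PBS range.

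Irf7, which drives transcription of type I interferon genes, overlapped between all groups. It was at 152 CPM in the lowest, 178 at the median and 232 in the highest PBS tumour. With tretinoin the values were 149, 206 and 286 CPM, with ICT 171, 261 and 346, and with tretinoin+ICT 183, 284 and 350. The groups overlapped in every comparison, and 7 of 10 tretinoin+ICT tumours exceeded all PBS tumours.

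Irf1, a transcriptional activator of antigen presentation genes, was the most abundant member. In PBS tumours it was at 142 CPM in the lowest, 216 at the median and 475 in the highest tumour, the last being tumour 14. Tretinoin tumours ran from 277 to 807 CPM with a median of 395, and ICT tumours from 144 to 909 with a median of 492.8. In tretinoin+ICT tumours the lowest was 534, the median 795 and the highest 1341 CPM. The tretinoin group was split, with tumours 32, 33 and 71 at 712, 807 and 792 CPM and the other 6 at 277 to 471. All 10 tretinoin+ICT tumours lay above every PBS tumour.

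Irf2, which competes with Irf1 for the same element and can act as its antagonist, rose less. Its lowest, median and highest values were 45.4, 52.3 and 79.2 CPM in PBS tumours and 50.96, 60.8 and 116.7 with tretinoin. They were 55.4, 96.3 and 156.5 with ICT and 84.7, 117 and 190.5 with tretinoin+ICT. The tretinoin group overlapped PBS in 6 of 9 tumours, and the tretinoin+ICT group did not overlap PBS. The highest PBS value was again that of tumour 14, and the next was 59.0 CPM.

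Batf2, a member of the BATF family of basic leucine zipper factors, which bind DNA jointly with IRFs, spanned the widest relative range. PBS tumours were at 8.42 CPM in the lowest, 15.4 at the median and 44.9 in the highest (tumour 14, with the next at 18.3). Tretinoin tumours were at 15.2, 25.1 and 89.8 CPM, and ICT tumours at 10.0, 45.7 and 90.9. In tretinoin+ICT tumours the values were 39.2, 92.9 and 142.4 CPM. Tumours 32, 33 and 71 held 73.7, 85.1 and 89.8 CPM, and the other 6 tretinoin tumours 15.2 to 35.7, so Batf2 was split in the same tumours as Irf1. The lowest tretinoin+ICT tumour, non-responder 44, was the only 1 of 10 below PBS tumour 14.

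Irf8, required for the development of conventional type 1 dendritic cells and of monocytes, was at 51.5 CPM in the lowest, 70.4 at the median and 131 in the highest PBS tumour. The corresponding values were 88.5, 129 and 253 CPM with tretinoin and 69.9, 124 and 292 with ICT. With tretinoin+ICT they were 169, 253 and 389 CPM. All tretinoin+ICT tumours were above all PBS tumours, and without PBS tumour 14 the PBS group ended at 89.3 CPM.

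Irf5, which acts downstream of Toll-like receptors in macrophages, was also lowest in PBS and highest in tretinoin+ICT tumours by its median. PBS tumours held 44.1, 56.0 and 84.8 CPM (lowest, median and highest), and tretinoin tumours 70.2, 89.8 and 164. ICT tumours held 59.9, 107 and 201 CPM, and tretinoin+ICT tumours 116, 171 and 256. The tretinoin group overlapped PBS only through tumour 14, and the tretinoin+ICT group did not overlap PBS.

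Irf4, known for its role in lymphocytes and in type 2 dendritic cells, had the lowest counts (80 to 853 per library) and so the largest counting error. It was at 4.35 CPM in the lowest, 6.98 at the median and 9.56 in the highest PBS tumour. With tretinoin the values were 9.49, 12.1 and 23.8 CPM, and with ICT 7.17, 10.5 and 23.8. With tretinoin+ICT they were 10.3, 20.9 and 31.6 CPM. Here 8 of 9 tretinoin tumours were above every PBS tumour, and no tretinoin+ICT tumour overlapped PBS.

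**Figure D2:**
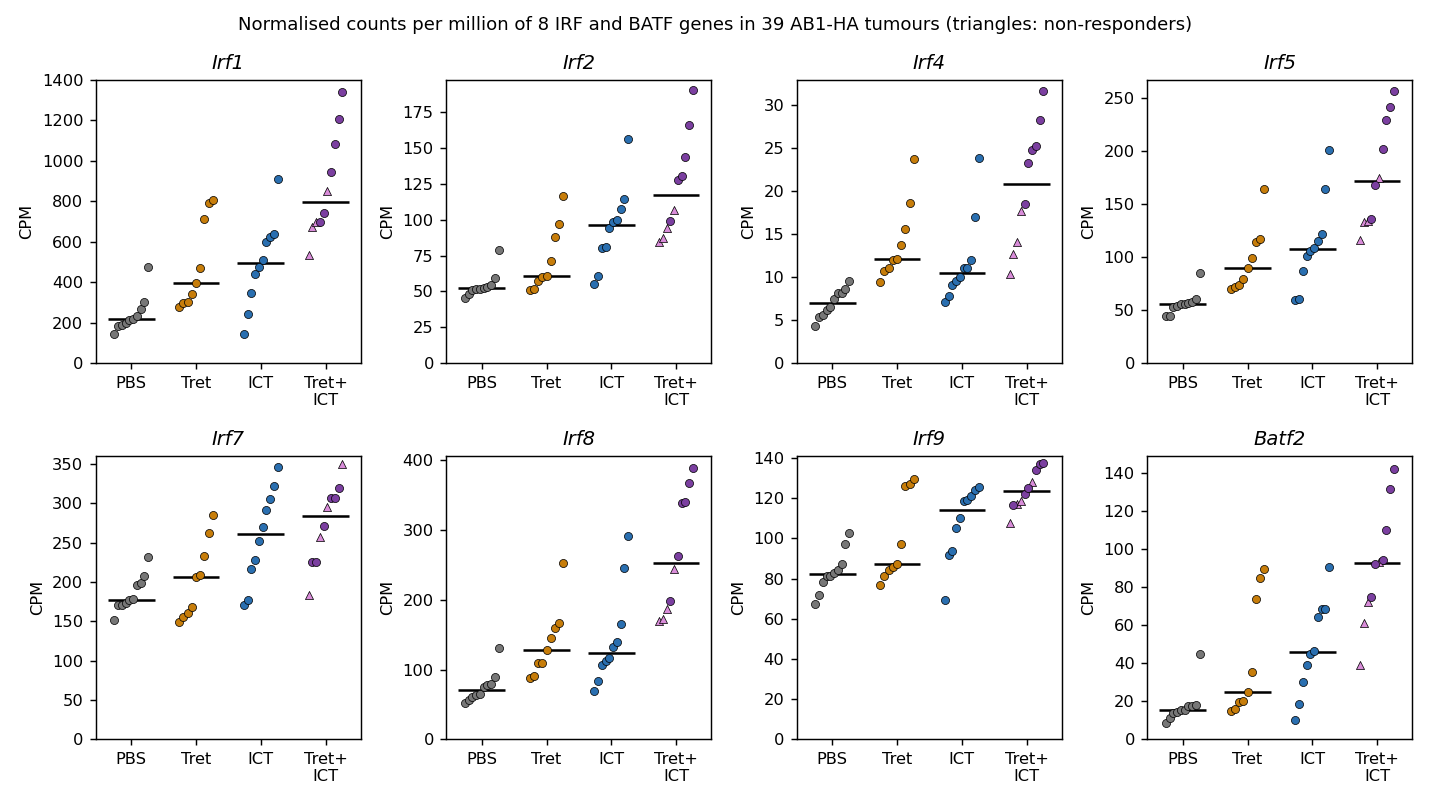
TMM-scaled CPM of the 8 members in every tumour by treatment group, on a linear axis from 0, with a line at the median and triangles for tretinoin+ICT non-responders. For Irf1, Irf2, Irf4, Irf5, Irf8 and Irf9 all 10 tretinoin+ICT tumours sit above every PBS tumour. In that comparison 25.7% of 14265 genes were called higher by edgeR, and how many of all genes separated in this way was not counted.

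The first comparison asked what tretinoin alone did. With tretinoin, Batf2, Irf1, Irf4, Irf8 and Irf5 rose, and Irf2, Irf9 and Irf7 did not pass the test. By edgeR's quasi-likelihood test with Benjamini-Hochberg adjustment, 5 of 8 members were higher and 0 lower at an adjusted p below 0.05, against 11.5% of the 14340 genes tested that were higher and 8.95% that were lower. Batf2 had the largest log2 fold change at 1.26 (SE 0.40, adjusted p = 0.0328, edgeR), and Irf1 rose by 1.01 (SE 0.26, adjusted p = 0.01). Irf4 rose by 1.01 (SE 0.17, adjusted p = 0.000264), Irf8 by 0.90 (SE 0.20, adjusted p = 0.0047) and Irf5 by 0.78 (SE 0.15, adjusted p = 0.00161) in the same edgeR fit. The smallest error relative to its change was that of Irf4, which was above the PBS median in 9 of 9 tumours. Irf2 was at 0.41 (SE 0.15, adjusted p = 0.0578 by edgeR), Irf9 at 0.25 (SE 0.11, adjusted p = 0.102) and Irf7 at 0.13 (SE 0.12, adjusted p = 0.455). With a log2 fold change of at least 1 asked in addition, the call the study uses, 3 members (Irf1, Irf4 and Batf2) were higher, against 1.49% of genes. The median log2 fold change was 0.84 over the members and 0.01 over all genes. Irf2 passed with DESeq2 (0.41, adjusted p = 0.0286) and without tumours 14 and 33 (0.37, adjusted p = 0.0304 by edgeR), and Batf2 did not with no filter on low counts (1.24, adjusted p = 0.0681).

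The ICT comparison used the same 10 PBS tumours as the tretinoin comparison, so their values stand side by side and are not independent. With ICT all 8 members rose, against 14.1% of 14155 genes that were higher and 7.15% that were lower. Batf2 rose by 1.44 on the log2 scale (SE 0.34, adjusted p = 0.00821, edgeR), Irf1 by 1.02 (SE 0.27, adjusted p = 0.0127), Irf5 by 0.98 (SE 0.19, adjusted p = 0.00243) and Irf8 by 0.96 (SE 0.24, adjusted p = 0.00915). Irf1 and Irf8 thus stood close to their values with tretinoin. Irf2 rose by 0.79 (SE 0.15, adjusted p = 0.00224 by edgeR), Irf4 by 0.76 (SE 0.20, adjusted p = 0.0111), Irf7 by 0.47 (SE 0.12, adjusted p = 0.00889) and Irf9 by 0.36 (SE 0.09, adjusted p = 0.0109). Thus Irf2, Irf7 and Irf9, which did not pass with tretinoin, passed with ICT, and whether the 2 agents differed for them was not tested directly. With the fold criterion 2 members (Irf1 and Batf2) were called, against 2.28% of genes. The median over the members was 0.88, and over all genes -0.02.

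After tretinoin+ICT the members were at their highest. All 8 rose over PBS, against 25.7% of 14265 genes that were higher and 24.5% that were lower, and 6 of 8 passed the fold criterion, against 5.45% of genes. Batf2 rose by 2.37 (SE 0.27, adjusted p = 2.15e-06, edgeR), a ratio of group means of 5.15. Irf1 rose by 1.86 (SE 0.21, adjusted p = 1.29e-06) and Irf8 by 1.84 (SE 0.19, adjusted p = 8.41e-07), each with group means over 3 times those of PBS, at ratios of 3.62 and 3.56. Irf5 rose by 1.66 (SE 0.15, adjusted p = 1.53e-07 by edgeR), Irf4 by 1.57 (SE 0.19, adjusted p = 2.87e-06) and Irf2 by 1.18 (SE 0.14, adjusted p = 2.99e-06). The members tied to ISGF3 and to type I interferon moved least, with Irf9 at 0.58 (SE 0.07, adjusted p = 1.26e-06, edgeR) and Irf7 at 0.57 (SE 0.10, adjusted p = 0.000109). The median was 1.62 over the members and -0.01 over all genes.

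Compared with ICT alone, the addition of tretinoin gave positive log2 fold changes for all 8 members, and 0 passed the edgeR test after adjustment, with 1.57% of 14202 genes called higher. Irf8 was at 0.87 (SE 0.24, adjusted p = 0.0689 by edgeR), Irf4 at 0.81 (SE 0.22, adjusted p = 0.0689), Batf2 at 0.92 (SE 0.31, adjusted p = 0.133) and Irf1 at 0.83 (SE 0.25, adjusted p = 0.0967). Irf5 was at 0.67 (SE 0.21, adjusted p = 0.101 by edgeR), Irf2 at 0.38 (SE 0.18, adjusted p = 0.271), Irf9 at 0.21 (SE 0.09, adjusted p = 0.229) and Irf7 at 0.09 (SE 0.13, adjusted p = 0.742). At an unadjusted p below 0.05, 7 of 8 members and 2571 genes passed in edgeR, the exception among the members being Irf7. The outcome depended on the fit. DESeq2 passed 5 members (Irf1, Irf4, Irf5, Irf8 and Batf2), against 2.75% of genes, and a single edgeR fit of all 39 tumours passed 4 (Irf1, Irf4, Irf5 and Irf8), against 3.14%. Without ICT tumours 63 and 82 edgeR passed 6 (all but Irf7 and Irf9), against 9.58%. That fit took tumours from the ICT group only, and these were its highest for Irf4, Irf5 and Irf8 (Irf8 at 292 and 245.1 CPM). It therefore favours a higher result and cannot serve as a check beside the other fits. In the full groups 4 of 10 tretinoin+ICT tumours were above every ICT tumour for Irf1, Irf4, Irf5 and Irf8, and tumour 63 was the highest ICT tumour for each of these.

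Compared with tretinoin alone, the addition of ICT raised 7 of 8 members, against 12.3% of 14393 genes that were higher. Batf2 rose by 1.11 (SE 0.37, adjusted p = 0.0394, edgeR) and was the 1 member past the fold criterion, against 1.87% of genes. Irf8 rose by 0.95 (SE 0.21, adjusted p = 0.0068 by edgeR), Irf5 by 0.88 (SE 0.18, adjusted p = 0.00416), Irf1 by 0.85 (SE 0.24, adjusted p = 0.0187) and Irf2 by 0.77 (SE 0.19, adjusted p = 0.0098). Irf7 rose by 0.44 (SE 0.14, adjusted p = 0.0298 by edgeR) and Irf9 by 0.33 (SE 0.10, adjusted p = 0.028). Irf4 was at 0.55 (SE 0.21, adjusted p = 0.0622 by edgeR). It passed with DESeq2, without tumour 33, and in the fit of all 39 tumours (0.55, adjusted p = 0.0452 by edgeR), whereas Batf2 did not pass with no filter on low counts (1.11, adjusted p = 0.0794). Tumour 33 was the highest tretinoin tumour for Irf4 (23.8 CPM), so the fit without it favours a higher result.

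**Figure D3:**
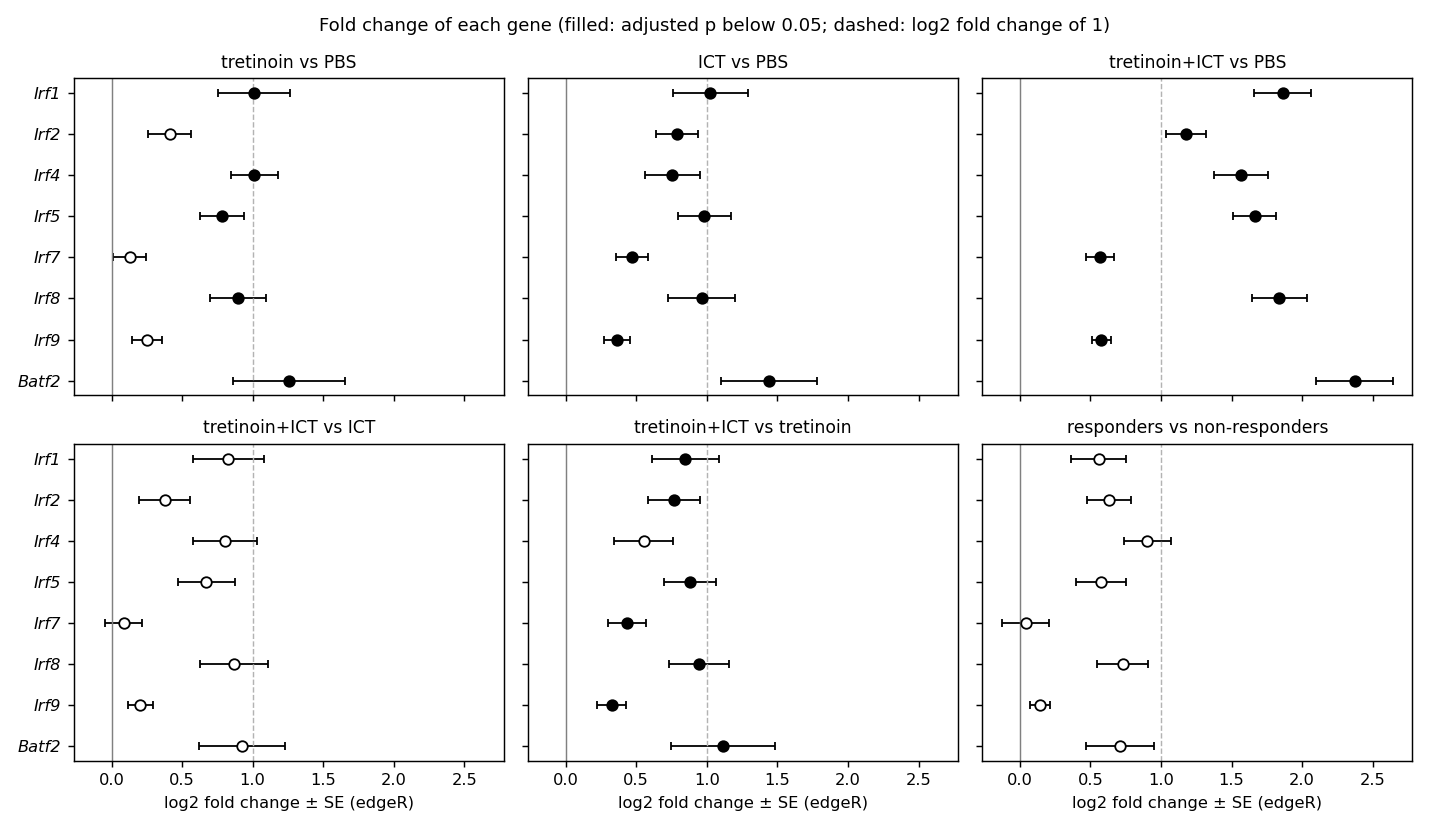
Log2 fold change with its standard error for each member in each comparison, filled where the edgeR adjusted p was below 0.05, with a dashed line at 1. All 8 members are filled for ICT and for tretinoin+ICT against PBS, and none for tretinoin+ICT against ICT or for responders against non-responders.

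Whether the agents acted on the members by more or less than the sum of their separate log2 changes was tested as an interaction over all 39 tumours. The interaction was between -0.33 (Batf2, SE 0.51) and -0.03 (Irf8, SE 0.32) for the 8 members, with adjusted p of 0.862 to 0.988 in edgeR. None passed, 0 had an unadjusted p below 0.05, and DESeq2 passed 0, while 0.0401% of 14977 genes were higher and 0.267% lower by edgeR, and 1415 had an unadjusted p below 0.05. With standard errors of 0.14 to 0.51, departures from additivity larger than the standard errors themselves remain compatible with these values. The test therefore does not show that the 2 agents were additive.

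Since a series of tumour names lies within 1 treatment, each treatment comparison was also made for its 4 pairs of series. Of 160 ratios of series means over the 8 members and 5 treatment comparisons, 158 had the sign of the pooled value. The other 2 were of Irf7 in tretinoin+ICT against ICT, where the pairs ranged from -0.04 to 0.20 on the log2 scale.

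Among the mice given tretinoin+ICT, the comparison of responders with non-responders asked which members differed before the outcome of the other tumour was known. Irf4, the member with the lowest counts, was the only 1 of the 8 whose groups did not overlap. How many of all genes separated in this way was not counted, so the separation cannot be read as particular to Irf4. The 4 non-responders were at 10.3, 12.7, 14.1 and 17.7 CPM, and the 6 responders ran from 18.5 to 31.6 with a median of 25.1. The log2 fold change of Irf4 was 0.90 (SE 0.17, unadjusted p = 0.000167, adjusted p = 0.0841 by edgeR), so it did not pass. No member and 0% of 14604 genes were called higher after adjustment, while 6 of 8 members and 3302 genes had an unadjusted p below 0.05.

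The log2 fold changes of the other members were 0.73 for Irf8 (SE 0.18, adjusted p = 0.0868, edgeR), 0.71 for Batf2 (SE 0.24, adjusted p = 0.126), 0.63 for Irf2 (SE 0.16, adjusted p = 0.0864), 0.58 for Irf5 (SE 0.18, adjusted p = 0.103) and 0.56 for Irf1 (SE 0.20, adjusted p = 0.128). Irf9 was at 0.15 (SE 0.07, adjusted p = 0.245 by edgeR) and Irf7 at 0.04 (SE 0.17, adjusted p = 0.915). For Irf8 the non-responders were at 169, 172, 187 and 244 CPM and the responders at 199 to 389 with a median of 339, and 5 of 6 responders were above every non-responder. For Irf2 the non-responders were at 84.7, 87.5, 94.1 and 106.7 CPM and the responders at 98.8 to 190.5 with a median of 137, and again 5 of 6 were above every non-responder. For Irf1, Irf5 and Batf2 this held for 4 of 6 responders, for Irf9 for 3, and for Irf7 for 0. Responder 43 was the lowest of the 6 for Irf1, Irf2, Irf4, Irf5, Irf8, Irf9 and Batf2.

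Without responder 43, edgeR passed 5 members (Irf1, Irf2, Irf4, Irf5 and Irf8), against 6.68% of genes called higher. Responder 43 was the lowest responder for these 5, so its removal favours a higher result and is no separate check. With all 10 tumours, DESeq2 passed 6 (all but Irf7 and Irf9), against 7.06%. Responders and non-responders also fell unevenly over the name series, with 2 responders and 3 non-responders in series 2, and 4 responders and 1 non-responder in series 4. Within series 2 the log2 ratio of means was 1.28 for Irf4, 0.76 for Irf8, 0.53 for Irf2 and -0.06 for Irf7, and within series 4, which rests on 1 non-responder, it was 0.38, 0.82, 0.74 and 0.56. The Irf4 difference was therefore of unequal size in the 2 series, and that of Irf7 had no common sign. For the other 4 members both series were positive, at 0.12 to 0.55 in series 2 and 0.24 to 1.49 in series 4.

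In whole tumours, fewer cells of a type and less RNA per cell cannot be told apart, and leukocyte markers moved with the members. Ptprc was at 168 to 404 CPM in PBS, 181 to 415 in tretinoin, 160 to 769 in ICT and 261 to 586 in tretinoin+ICT tumours, with 344 to 586 in responders and 261 to 463 in non-responders. The 4 monocyte markers summed to 419 to 873 CPM in PBS, 506 to 1046 in tretinoin, 465 to 1489 in ICT and 770 to 1774 in tretinoin+ICT tumours, and 2, 4 and 4 of the 4 rose over PBS in the 3 treated groups by edgeR. The 5 macrophage markers summed to 1649 to 2420 CPM in PBS and 2322 to 3447 in tretinoin+ICT tumours, where 5 of 5 rose. Type 2 dendritic cell markers summed to 37.4 to 74.5 and 97.1 to 385 CPM in the same groups, with 2 of 4 higher. Mgl2 went from a mean of 24.8 to 152.7 CPM and Clec10a from 16.1 to 57.6. Cd209a (10.9 and 11.4) and Cd7 (4.65 and 4.79) hardly changed, so this sum mostly follows Mgl2 and Clec10a. T cell markers summed to 37.0 to 79.9 and 36.1 to 89.5, with 0 of 6 passing in edgeR, at an unadjusted p below 0.05 or with DESeq2. Between responders and non-responders, where the Irf4 values did not overlap, the sums of both lists also had higher means in responders. The T cell markers summed to a mean of 67.7 CPM (40.5 to 89.5) in responders and 42.7 CPM (36.1 to 54.5) in non-responders, and 0 of 6 passed in edgeR, 4 at an unadjusted p below 0.05 and 2 with DESeq2. The type 2 dendritic cell markers summed to a mean of 287 CPM (132 to 385) and 135 CPM (97.1 to 213), and 0 of 4 passed in edgeR, 2 at an unadjusted p below 0.05 and 1 with DESeq2. No marker was at 0 in every tumour. The part of these cells in the levels of the members was not tested.

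Divided by Ptprc in the same tumour, the members fell into separate patterns. The median ratio of Batf2 to Ptprc in tretinoin+ICT tumours was 3.33 times that in PBS tumours, that of Irf1 2.28, Irf8 2.19, Irf4 1.96, Irf5 1.90 and Irf2 1.35 times. For Irf9 it was 0.905 and for Irf7 0.858 times the PBS median, so these 2 members did not exceed the change in Ptprc. With tretinoin alone, where the mean of Ptprc was close to that in PBS, the ratios were 1.79 times the PBS median for Irf4, 1.72 for Irf1, 1.65 for Batf2, 1.62 for Irf8 and 1.56 for Irf5, and 1.16 for Irf2, 0.975 for Irf9 and 0.891 for Irf7. With ICT alone they were 1.86 for Batf2, 1.42 for Irf1, 1.33 for Irf5, 1.27 for Irf8, 1.23 for Irf2, 1.10 for Irf4, 1.04 for Irf7 and 0.932 for Irf9. These are ratios within a tumour, with no test.

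The same ratio was set side by side for responders and non-responders, again with no test. The median ratio of Irf4 was 1.54 times that of non-responders, with 6 of 6 responders above the non-responder median. For Irf1 it was 1.04, Irf5 1.07, Irf2 1.09, Batf2 1.19 and Irf8 1.19 times. Irf7 went the other way at 0.789 times, with responders at 0.531 to 0.680 and non-responders at 0.703 to 0.906 and no overlap, and Irf9 was at 0.783 times with 0 of 6 responders above the non-responder median. Neither gene was itself lower in responders. Irf7 had means of 276 CPM in responders and 271.6 in non-responders, and Irf9 128.7 and 117.8, while Ptprc had 458.2 and 340.6. How many of all genes had lower ratios to Ptprc in responders was not counted.

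**Figure D4:**
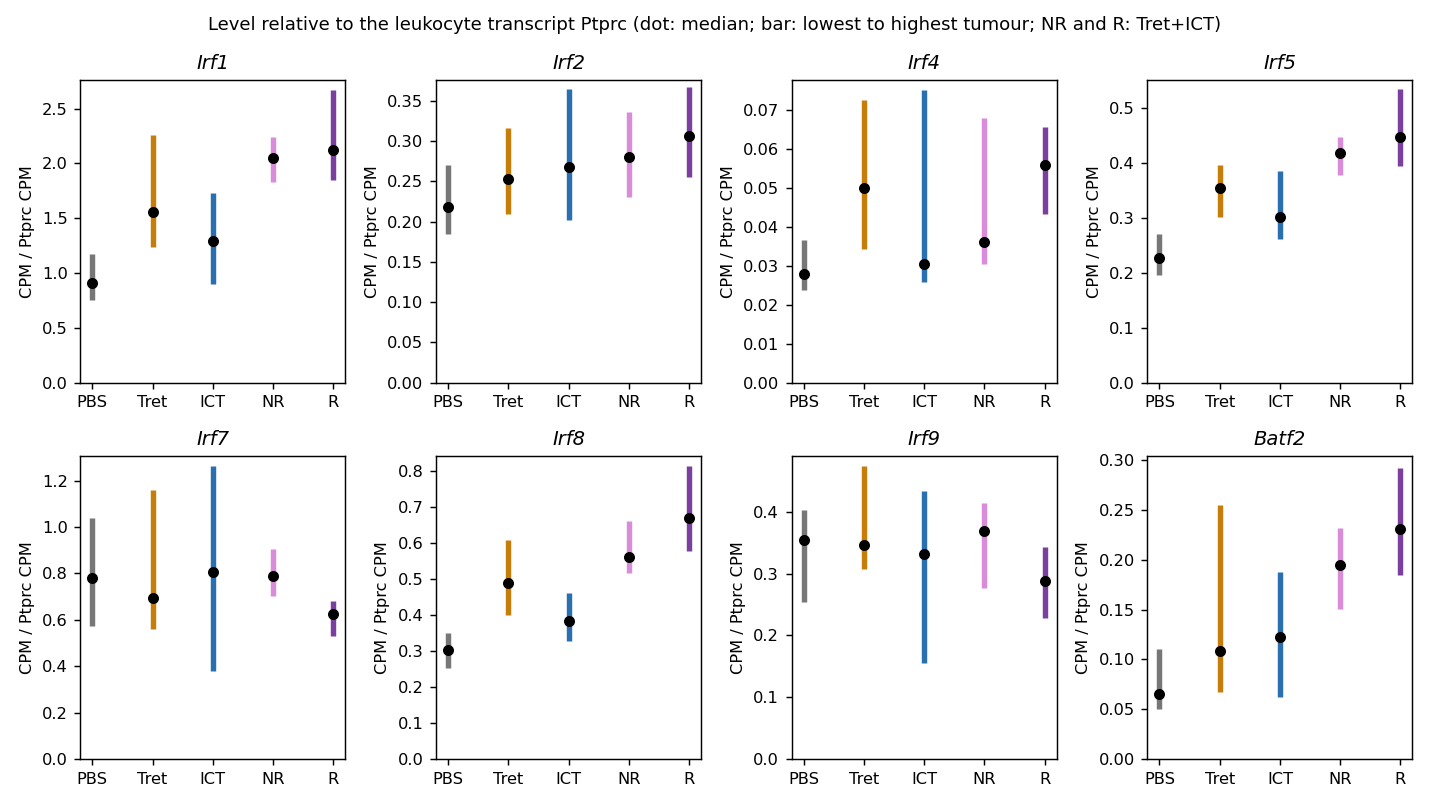
Ratio of each member to Ptprc in the same tumour for PBS, tretinoin (Tret), ICT, and tretinoin+ICT non-responders (NR) and responders (R), with a dot at the median and a bar from the lowest to the highest tumour. Irf1, Irf2, Irf4, Irf5, Irf8 and Batf2 have higher median ratios than PBS tumours in both responders and non-responders. Irf7 has its lowest median ratio in responders, where the mean of Ptprc itself was highest.

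How the members varied together was described over the 39 tumours, on log2 CPM after the mean of each name series was removed. The tumours share the cell line and the normalisation, and a tumour rich in leukocytes is rich in many of these transcripts at once, so the values are a description with no test. Irf1 and Batf2 were closest (r = 0.976, rho = 0.972, and r = 0.968 without the 2 farthest tumours), followed by Irf5 and Irf8 (r = 0.95, rho = 0.907, r = 0.93 without 2) and Irf9 and Batf2 (r = 0.949, rho = 0.951, r = 0.925 without 2). Irf4 stood apart, with r of 0.09 to Irf7 (rho = 0.039, 0.067 without 2) and 0.316 to Irf9 (rho = 0.312, 0.317 without 2). Its closest member was Irf8 (r = 0.782, rho = 0.724, 0.725 without 2). With Ptprc, r was 0.959 for Irf8 and 0.94 for Irf5 (rho = 0.934 and 0.898), and 0.565 for Irf7 (rho = 0.597). Against the summed markers of type 2 dendritic cells, a sum made up mostly of Mgl2 and Clec10a, Irf4 had r of 0.839 (rho = 0.844, 0.796 without 2) and Irf7 -0.01 (rho = -0.011). Against the T cell markers Irf4 was as close (r = 0.849, rho = 0.8) and Irf7 at 0.247 (rho = 0.24). The list closest to Irf7 was that of plasmacytoid dendritic cells (r = 0.816, rho = 0.838), with which Irf9 (r = 0.871) and Irf1 (r = 0.866) stood higher. Irf4 was also close to the macrophage markers (r = 0.831, rho = 0.8). With the type 1 dendritic cell markers its r was 0.787 (rho = 0.795, 0.86 without 2), so Irf4 did not single out 1 cell type.

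**Figure D5:**
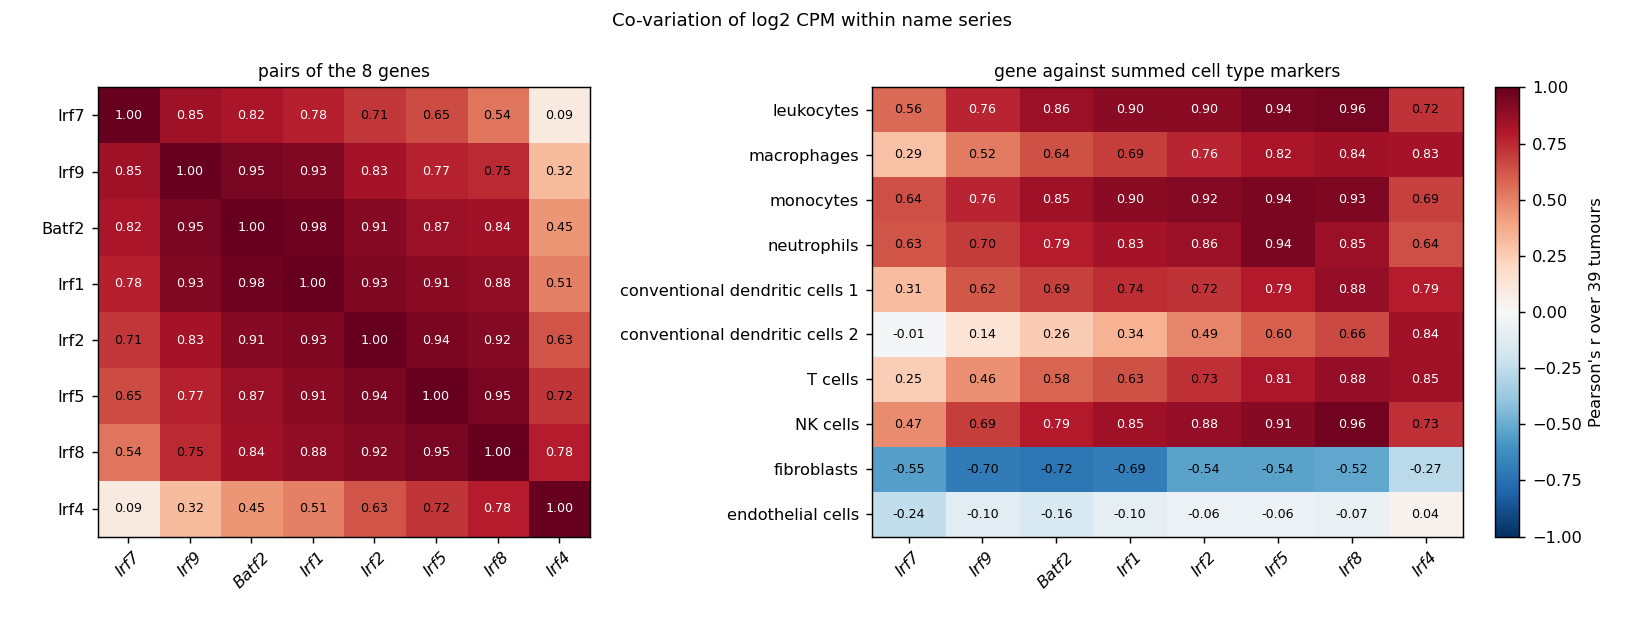
Pearson r over 39 tumours of log2 CPM deviations from name series means, between the 8 members (left) and between each member and 10 of the 16 summed marker lists (right). Irf4 correlates least with Irf7 (0.09) and Irf9 (0.316), and most with Irf8 among the members (0.782).

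Of 12123 genes searched in the same way, those nearest to each member are listed as a measure of likeness over the 39 tumours. Irf1 was nearest to Gbp5 (r = 0.992, rho = 0.987), Gm4951 and Tap1. Batf2 was nearest to Gbp6 (r = 0.989), Zbp1 and Gbp2b, and Irf9 to Gbp3 (r = 0.968), Parp9 and Xaf1. Irf7 was nearest to Oas1a (r = 0.955), Ifit3 and Phf11d. Guanylate-binding protein genes thus led for Irf1, Batf2 and Irf9, and genes of antiviral effectors for Irf7. Irf5 was nearest to Itgb2 (r = 0.983), the integrin chain common to leukocytes, and Irf2 to Sdc3 (r = 0.979). Irf8 was nearest to Dnase1l3 (r = 0.978), Sema4a and the costimulatory ligand gene Cd86, and Irf4 to Slc7a2 (r = 0.919), Fam46a and Frmd4b.

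The surrounding pathway was described with 79 listed genes, of which 70 were in the table. With tretinoin 21 of 64 tested rose and 1 fell by edgeR, with ICT 46 of 64 rose and 1 fell, and with tretinoin+ICT 56 of 63 rose and 2 fell, each against PBS. The shares of all genes tested that rose in these comparisons were 11.5%, 14.1% and 25.7%. At the top of the pathway, 5 of 6 interferon ligand genes were in the table, all of type I or type III interferons (Ifnb1, Ifna4, Ifna5, Ifnl2 and Ifnl3). Of these, 0 passed the filter on low counts, so their transcripts could not be tested at this depth. The other listed ligand gene was not analysed here. Receptor genes rose in 3 of 6 (tretinoin), 4 of 6 (ICT) and 5 of 5 tested (tretinoin+ICT). Ifnlr1, the receptor of type III interferon, fell by 1.08 on the log2 scale with tretinoin (SE 0.30, adjusted p = 0.0146, edgeR). It was near the floor, at a mean of 0.905 CPM in PBS and 0.43 CPM in tretinoin tumours. In tretinoin+ICT tumours its mean was 0.326 CPM, and it was the receptor gene left out by the filter on low counts there.

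Of the other STAT genes, Stat4, which carries the signal of interleukin 12, rose by 0.49 with tretinoin (SE 0.14, adjusted p = 0.022, edgeR), 0.69 with ICT (SE 0.23, adjusted p = 0.0366) and 0.85 with tretinoin+ICT (SE 0.17, adjusted p = 0.000326). Of the DNA-binding partners of IRFs, Batf3 rose most, by 1.34, 1.95 and 2.97 in the same order (SE 0.38, 0.31 and 0.31, and adjusted p = 0.017, 0.000692 and 5.09e-07 by edgeR). Batf3 is needed with Irf8 for type 1 dendritic cells, all 4 markers of which rose with tretinoin+ICT, Batf3 being 1 of them.

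Genes downstream of the members were listed by branch. Of 10 tested ISGF3 target genes, 0 rose with tretinoin in edgeR (median log2 fold change 0.13, with 1 at an unadjusted p below 0.05 and 0 passing with DESeq2, where 11.5% of all genes rose in edgeR), 5 with ICT (0.38) and 9 with tretinoin+ICT (0.57), where Oasl2 rose by 1.05, Ifi44 by 0.92 and Ifit3 by 0.77. Of 12 tested target genes of Irf1 and of the gamma-activated pathway, 4 rose with tretinoin in edgeR (median 0.73, with 10 at an unadjusted p below 0.05 and 8 passing with DESeq2), 12 with ICT (0.97) and 12 with tretinoin+ICT (1.49). Ido1, which breaks down tryptophan, rose by 2.51 with tretinoin (SE 0.69, adjusted p = 0.0165, edgeR), 2.67 with ICT (SE 0.56, adjusted p = 0.00429) and 3.89 with tretinoin+ICT (SE 0.46, adjusted p = 2.82e-06). Cd274, which encodes PD-L1, the target of 1 of the antibodies, rose by 1.88 with ICT (SE 0.43, adjusted p = 0.00688, edgeR) and by 2.58 with tretinoin+ICT (SE 0.34, adjusted p = 7.74e-06), and was at 1.25 with tretinoin (SE 0.44, adjusted p = 0.0511). The difference between the 2 branches of targets was not tested.

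Of the negative regulators of the pathway, 6 of 7 tested rose with tretinoin+ICT and 1 fell against PBS, led by Cish (2.12) and Socs3 (1.25), inducible inhibitors of cytokine receptor signalling, while Ptpn11 fell by 0.23 on the log2 scale. Of the activators upstream of IRFs 9 of 12 rose and 1 fell, led by Ikbke (1.18), a kinase that phosphorylates Irf3 and Irf7, and Unc93b1 (1.06), which carries Toll-like receptors to endosomes. Irf3 itself was at -0.08 and did not pass (adjusted p = 0.13, edgeR). Against ICT alone, tretinoin+ICT raised 4 of 64 tested pathway genes in edgeR (Socs3, Junb, Irf2bp2 and Jun), against 1.57% of all genes, and lowered 1 (Tlr7, by 0.47). In that comparison 25 of 64 had an unadjusted p below 0.05 by edgeR (2571 of 14202 over all genes). Against tretinoin alone, 28 of 64 rose, against 12.3% of all genes, and 1 fell. Between responders and non-responders, 0 of 64 passed in edgeR, 34 had an unadjusted p below 0.05 (3302 of 14604 over all genes), and DESeq2 passed 20, all higher in responders, against 7.06% of all genes.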

How the data were processed

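RNA from 39 whole AB1-HA tumours was sequenced single-end on an Illumina NovaSeq, on 1 flow cell. Per the submitters' processing notes, bcl2fastq 2.20.0.422 and HISAT2 2.0.4 were used; the authors counted reads on genes with SummariseOverlaps on a genome named mm11, and the deposited values are raw counts per gene. Strand and multi-mapping settings are not given in the sources used here. Members and gene lists were chosen with earlier results of these data known. Coordinates came from GENCODE M21, in which 4 members matched with their version and 4 differed in version only.

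Counts were tested in R 4.3.3 with edgeR 4.0.16 (TMM, filterByExpr, robust quasi-likelihood test, Benjamini-Hochberg adjustment over all genes tested, threshold 0.05), on the tumours of the groups compared, and on all 39 for the interaction. DESeq2 1.42.0, its size factors, other filters, 1 fit of all tumours, name series as a term and left-out tumours were the alternatives. The fits were tested on simulated data. Correlations used log2 CPM with a prior count of 2. Python 3.11.15 (pandas 2.3.3, numpy 2.4.6, scipy 1.17.1) was used for summaries. Named pathway genes were up to 3 per role with the largest passing change, apart from those named because a member's result turned on them. Per the study's methods, each sequenced tumour came from its own mouse. Of the listed pathway genes, 1 is not reported here by name.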

Additional observations from a re-analysis of the deposited data

Results flagged for a closer look

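In 48 groups of member values (8 members in 6 groups), the highest or lowest tumour was compared with its nearest neighbour, and 3 groups held a tumour that stood apart by Dixon's 95% criterion. Chance alone marks about 1 in 20 groups. All 3 were PBS tumour 14, with Irf2 at 79.23 CPM, Irf5 at 84.84 CPM and Batf2 at 44.85 CPM. On log2 CPM, the scale of this criterion, its gap to the next PBS tumour was 0.528, 0.521 and 0.538 of the range of the PBS group. The tumour was also the highest of the PBS group for Irf1, Irf4, Irf7, Irf8 and Irf9, and Ptprc was highest there too. It was kept in the reported comparisons.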

How the results depend on the processing

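Of 408 member values under the alternatives, 367 kept their direction and side of the threshold, 31 passed where the reported fit did not, 2 (Batf2 with no low-count filter) ceased to pass and 8 changed sign. The signs that changed were not called values. For responders against non-responders, Irf7 became -0.112 without non-responder 44, -0.004 without non-responder 25, -0.005 without responder 41, and at most 0.156 with another tumour left out. The interaction without the 4 tumours high in leukocyte markers became 0.17 for Irf2, 0.144 for Irf4, 0.182 for Irf5, 0.341 for Irf8 and 0.014 for Irf9. For tretinoin+ICT against ICT, members passing went from 0 to 5 with DESeq2, 4 in 1 fit of all tumours and 6 without tumours 63 and 82, and genes from 223 higher and 60 lower to 383 and 164, 471 and 270, and 1372 and 1048. For responders against non-responders, members went from 0 to 6 with DESeq2 and 0 to 5 when 1 tumour was left out, and genes from 0 to 890 higher and 535 lower with DESeq2, 4 and 1 with no filter, 1 lower in 1 fit, and 0 to 971 higher and 0 to 834 lower with a tumour left out, the largest values being those without responder 43. Genes lower went from 1284 to 845 with tretinoin in 1 fit, from 1012 to 651 with ICT and no filter, and from 1297 to 1993 (1 fit) and 2107 (without tumour 33) for tretinoin+ICT against tretinoin. The interaction went from 6 higher and 40 lower to 11 and 70 with DESeq2, 25 lower with no filter and 15 higher without the 4 tumours. The fits without tumours 63 and 82, tumour 33 or responder 43 took tumours from 1 group only, on the side that favours more members passing. The cause was not tested. Each treatment arm held 9 or 10 tumours, and 6 against 4 for response, so the response comparison rested on the fewest tumours. No paired analysis was possible because the labels carry no replicate numbers shared across groups.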
